A study of Mus musculus with 9 samples.

Results

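The genes described here are 34 genes of the unfolded protein response and the integrated stress response, taken by name from the gene-name column of a count table that lists 54456 gene names. All 34 were found, and all 34 were among the 18051 genes that passed a filter on low counts and were tested. They cover the sensors of the endoplasmic reticulum (ER) and their transcription factors, the factors and effectors of the integrated stress response, enzymes of asparagine and serine synthesis, ER chaperones, protein disulfide isomerases, lectin chaperones, ER-associated degradation and the translocon. They were measured by RNA sequencing in aggregates of mammary epithelial cells from wild-type (WT) mice. Flow cytometry had separated basal cells, the contractile outer layer of the duct, from luminal cells, its inner lining. Aggregates were then made from basal cells alone, from luminal cells alone or from a 50% mixture, with 3 libraries of each kind. All 9 libraries share the same treatment: the aggregates lay in 80% Matrigel about 100 µm from beads of heparin sulfate, 100 to 150 µm across, that had taken up FGF10 from a 100 µg/mL solution. The treatment label gives 56 h of migration towards the beads and the titles give 55 h. The study asked what each cell kind contributes to this collective migration. No aggregate without FGF10 is among the libraries, so each comparison is between kinds of aggregate and not with an unstimulated state. The labels give no age for the mice and do not tie libraries to animals or cultures, so p-values measure the spread between these libraries, which may be technical.

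Secreted and membrane proteins fold in the ER with the help of chaperones, and misfolded protein there activates a set of sensors. IRE1 (Ern1) splices the Xbp1 mRNA so that it encodes an active transcription factor, ATF6 is cut to release another, and PERK (Eif2ak3) phosphorylates the initiation factor eIF2. Phosphorylated eIF2 lowers general protein synthesis but raises translation of ATF4, which induces Ddit3 (CHOP), Trib3, Chac1 and amino acid genes, and this arm is also open to kinases that sense amino acid shortage, haem or viral RNA. Gene counts show the amount of mRNA of these genes. They do not show splicing of Xbp1, cutting of ATF6 or phosphorylation of eIF2.

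The libraries held 15585324 to 19164405 counts, so that 3 counts in a library corresponded to 0.152 to 0.187 CPM, the unit used below, which is a gene's counts per 1000000 counts of a library after TMM scaling. The lowest value of any member was 1.49 CPM, for Derl3 in luminal 3. The 34 members took 0.698% to 0.749% of counts in basal, 0.614% to 0.713% in luminal and 0.560% to 0.581% in mixed libraries. The column names of the count table carry 3 kinds of prefix, called code series here, which do not follow the groups. Series A holds basal 2 and mixed 1 to 3, series B holds basal 1, basal 3 and luminal 1, and series C holds luminal 2 and 3, so mixed and luminal libraries share no series. What a code series stands for is not given in the sources used here. The labelled cell kinds were checked with 10 markers each. In luminal against basal aggregates, all 10 basal markers fell and all 10 luminal markers rose. The summed basal markers were at 10344 to 11890 CPM in basal, 1440 to 2856 CPM in luminal and 6621 to 7848 CPM in mixed libraries. The summed luminal markers came to 3504 to 3960, 8579 to 11467 and 9689 to 11209 CPM in the same order. Krt19 carried the mixed sum, with a mean of 4537 CPM against 1336 CPM in luminal libraries. Between mixed and luminal aggregates 2 of the 10 luminal markers were higher and 5 lower, Krt18 among the latter with means of 1478 and 2901 CPM. Krt5 and Muc1 separated the pure kinds well, with Krt5 at 1630 to 2109 CPM in basal and 12.996 to 23.2 CPM in luminal libraries, and Muc1 at 3.69 to 5.002 CPM against 206 to 268 CPM. Krt8, a luminal keratin, was still at 914 to 1046 CPM in basal libraries, and Krt14, a basal keratin, at 1285 to 2554 CPM in luminal ones. Other markers also moved with the groups. The 6 cell cycle genes summed to 944 to 1342 CPM in basal, 74.3 to 86.0 CPM in luminal and 830 to 1023 CPM in mixed libraries. The 7 fibroblast markers summed to 120 to 153, 6.77 to 11.01 and 48.4 to 71.1 CPM, with Col1a2 at 0 counts in every luminal library. Fbln1 carried most of the basal and mixed sums, with means of 106 CPM in basal, 0.689 CPM in luminal and 31.6 CPM in mixed libraries. Dcn did not follow it, with means of 5.95, 3.40 and 7.17 CPM. The 8 immune markers summed to 4.43 to 4.97 CPM in basal 1 and 3, but to 49.6 CPM in basal 2, to 22.3 to 53.8 CPM in luminal and to 45.03 to 65.2 CPM in mixed libraries. Different genes made up these sums. Cd68 was at 3.91 CPM in basal 2, with means of 32.0 CPM in luminal and 5.67 CPM in mixed libraries. Cd74 was at 27.3 CPM in basal 2, with means of 0.758 CPM in luminal and 29.8 CPM in mixed libraries. The part of these cells and of the code series in the values below was not tested, beyond a fit with the series as a term. In bulk RNA, fewer cells of a kind and less RNA per cell cannot be told apart.

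Luminal aggregates differed from basal aggregates in 22 of the 34 members, with 10 higher and 12 lower. Over all genes tested 27.1% passed in this comparison, 12.8% higher and 14.4% lower. Genes of signalling and stress transcription, led by Xbp1, made up most of the higher ones, and ER-resident chaperones made up most of the lower ones. The median log2 difference of the members was -0.02, the same as the -0.02 of all genes tested. Mixed aggregates differed from basal aggregates in 7 members, 2 higher and 5 lower, where 13.7% of all genes passed (6.39% higher and 7.33% lower). Against luminal aggregates they differed in 16 members, 5 higher and 11 lower, where 29.4% of all genes passed (15.2% higher and 14.2% lower). The median member stood at -0.27 and -0.18 in these comparisons, and the median of all genes at -0.07 and -0.05. The 3 comparisons share libraries, so their counts are not independent of each other. The members were chosen with earlier results of these data known, so a share called above that of all genes is no test of these pathways. In all, 27 members passed in at least 1 comparison and Xbp1 passed in all 3. The remaining 7 (Atf4, Phgdh, Dnajb11, Dnajc3, Creld2, P4hb and Pdia3) passed in none.

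These counts came from edgeR's quasi-likelihood test over all 9 libraries with Benjamini-Hochberg adjustment and a threshold of 0.05. Adjusted p-values below are from that fit unless another test, another fit or a left-out library is named. The count of mixed against basal aggregates rested on single libraries. It was 3 without basal 1, 12 without basal 2, 1 without basal 3, and 2, 3 and 4 without mixed 1, 2 and 3, where 6.24%, 27.0%, 5.09%, 8.80%, 8.74% and 9.12% of all genes passed. Against luminal aggregates the count was 8 without luminal 1, where 17.1% of all genes passed. With the code series as a term, 13 members (9 higher, 4 lower) passed between luminal and basal, 6 (1 higher, 5 lower) between mixed and basal and 4 (all lower) between mixed and luminal aggregates. The shares of all genes were 13.9% (7.09% higher, 6.80% lower), 4.73% (2.93% higher, 1.79% lower) and 2.72% (2.05% higher, 0.670% lower). That fit compares luminal 1 with basal 1 and 3, compares the mixed libraries with basal 2, and reaches mixed against luminal only through basal. It kept 12, 3 and 4 of the calls, and all 45 calls kept their direction in it. Where groups are said not to overlap below, every library of one lay above every library of the other. That held for 46.6% of all genes between luminal and basal (23.2% higher, 23.4% lower), 33.1% between mixed and basal (14.5% higher, 18.7% lower) and 51.1% between mixed and luminal aggregates (25.0% higher, 26.1% lower).

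**Figure D1:**
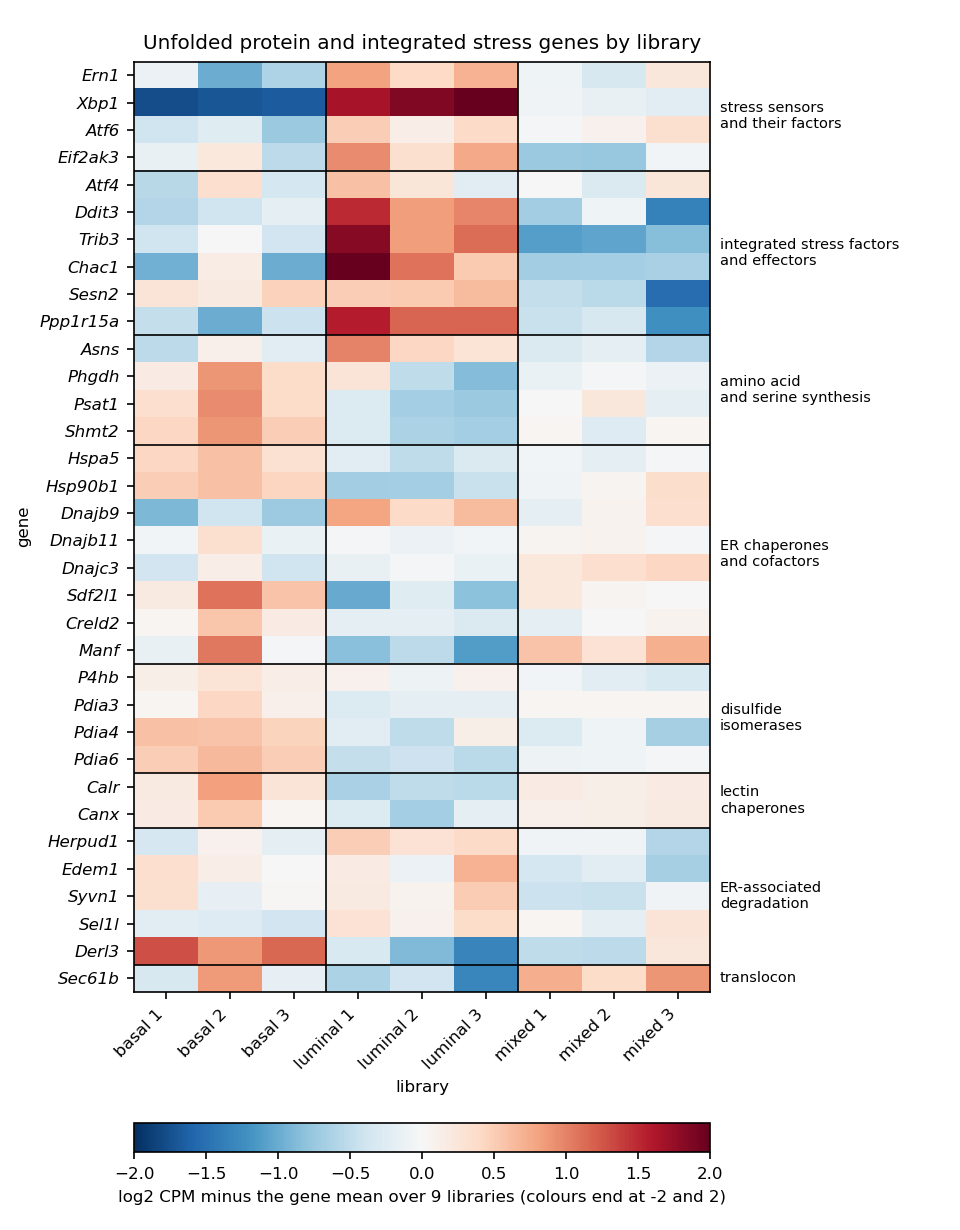
Colour gives each library's log2 CPM minus the gene's mean over the 9 libraries, with genes in rows grouped by role and libraries in columns (colours end at -2 and 2). Xbp1 and the integrated stress effectors are red in the 3 luminal libraries, most chaperones are red in the basal ones, and in several rows basal 2 differs from basal 1 and 3.

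Among the sensors and their factors, Xbp1 had the largest difference of all members. The gene (mm39 chromosome 11, 5470659 to 5475893, plus strand) was at 163, 171 and 177 CPM in basal 1, 2 and 3, at 1753, 2017 and 2407 CPM in luminal 1, 2 and 3, and at 533, 506 and 476 CPM in mixed 1, 2 and 3. The 3 groups did not overlap, with mixed libraries above basal and below luminal ones. Xbp1 was 12.1-fold higher in luminal than in basal aggregates (log2 3.60 ± 0.18, SE, adjusted p = 2.0e-07, n = 3 each). It was also higher in mixed than in basal aggregates (1.57 ± 0.17, adjusted p = 0.00019) and lower in mixed than in luminal ones (-2.03 ± 0.17, adjusted p = 1.4e-05), and all 3 calls passed under every alternative run. Per kilobase of exon, Xbp1 ranked 12 of the 34 members in basal aggregates (52.5 CPM per kb), 1 in luminal (634) and 4 in mixed ones (156).

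Ern1, which encodes the IRE1 enzyme that splices Xbp1 mRNA, was at 13.2, 7.22 and 9.31 CPM in the basal, 25.1, 18.9 and 23.2 CPM in the luminal and 13.4, 11.5 and 16.7 CPM in the mixed libraries. Luminal libraries lay above all others, and basal and mixed ones overlapped. Ern1 rose in luminal against basal aggregates by 1.17 ± 0.28 on the log2 scale (adjusted p = 0.0088), and with the code series as a term by 1.15 without passing (adjusted p = 0.074). Per kilobase it was the lowest of all members in basal aggregates. Atf6, the gene of the cleaved sensor, was at 22.8, 25.4 and 17.9 CPM in basal, 42.3, 33.1 and 39.4 CPM in luminal and 29.4, 32.1 and 37.7 CPM in mixed libraries. It rose in luminal against basal aggregates by 0.80 ± 0.20 (adjusted p = 0.012), and the call ended without basal 3 (0.67, adjusted p = 0.065) and without luminal 1 (0.72, adjusted p = 0.056). Eif2ak3, the PERK gene, was at 14.6, 18.8 and 11.3 CPM in basal, 31.0, 20.1 and 27.3 CPM in luminal and 9.67, 9.54 and 15.5 CPM in mixed libraries. The mixed libraries lay below every luminal one. The difference between mixed and luminal aggregates passed (-1.17 ± 0.29, adjusted p = 0.013), though not without luminal 1 (-1.04, adjusted p = 0.056) or with the code series (-1.96, adjusted p = 0.12). Between luminal and basal aggregates Eif2ak3 did not pass at 0.81 (adjusted p = 0.059). Another gene covers 8.05% of its exon bases.

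Of the 6 factors and effectors of the integrated stress response, 4 were higher in luminal than in basal aggregates and none was lower. Against luminal aggregates 5 were lower in mixed ones. These counts were 66.7% and 83.3% of the 6, where 27.1% and 29.4% of all genes passed. Atf4, the factor at the head of this arm, which is controlled largely at translation, was not called in any comparison. Its libraries overlapped in all groups, at 97.03, 179 and 111 CPM in basal, 214, 168 and 123 CPM in luminal and 144, 117 and 168 CPM in mixed aggregates. Luminal minus basal Atf4 was 0.38 ± 0.27 (adjusted p = 0.33) and, with the code series as a term, 1.04 ± 0.26 (adjusted p = 0.027).

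Ddit3, which encodes CHOP, was at 13.9, 15.8 and 18.2 CPM in basal libraries, 58.5, 37.0 and 41.1 CPM in luminal libraries and 12.8, 19.6 and 8.17 CPM in mixed libraries. All luminal libraries lay above all others, and basal and mixed ones overlapped. The log2 difference was 1.51 ± 0.31 between luminal and basal (adjusted p = 0.0035) and -1.75 ± 0.31 between mixed and luminal aggregates (adjusted p = 0.0024). Trib3, a pseudokinase that binds ATF4 and CHOP, was at 28.4, 37.3 and 28.9 CPM in basal, 132, 66.9 and 81.3 CPM in luminal and 17.5, 18.1 and 20.9 CPM in mixed libraries. Every mixed library was below every basal one, and every luminal library was above both. Trib3 rose by 1.57 ± 0.25 in luminal against basal aggregates (adjusted p = 0.00063) and was lower in mixed than in luminal ones by -2.31 ± 0.26 (adjusted p = 9.4e-05). Both calls passed under every alternative run. Mixed minus basal Trib3 was -0.74 ± 0.25 and did not pass (adjusted p = 0.070), but passed with the code series as a term (-0.99, adjusted p = 0.034).

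Ppp1r15a, the GADD34 subunit that directs a phosphatase to eIF2, was at 16.2, 11.4 and 16.8 CPM in basal, 67.5, 50.7 and 50.8 CPM in luminal and 16.7, 18.2 and 9.64 CPM in mixed libraries. Luminal libraries stood apart from both other groups, which overlapped. Its difference was 1.93 ± 0.27 between luminal and basal (adjusted p = 0.00028) and -1.93 ± 0.27 between mixed and luminal aggregates (adjusted p = 0.00058). Chac1, which degrades glutathione, was at 2.64, 5.68 and 2.59 CPM in basal, 23.9, 10.9 and 7.34 CPM in luminal and 3.15, 3.20 and 3.27 CPM in mixed libraries. The luminal libraries differed among themselves, with luminal 1 far above luminal 2 and 3, but did not overlap the other groups. Chac1 rose by 1.95 ± 0.49 in luminal against basal aggregates (adjusted p = 0.012), which ended without luminal 1 (1.33, adjusted p = 0.094) and without basal 3 (1.76, adjusted p = 0.054). It was lower in mixed than in luminal aggregates by -2.13 ± 0.50 (adjusted p = 0.0093), which ended without luminal 1 (-1.51, adjusted p = 0.062). Sesn2, a stress-induced inhibitor of mTORC1 signalling, had its lowest levels in mixed aggregates. It was at 39.5, 37.3 and 45.7 CPM in basal, 46.6, 47.3 and 51.2 CPM in luminal and 23.7, 22.6 and 11.4 CPM in mixed libraries. Sesn2 was lower in mixed than in basal (-1.08 ± 0.25, adjusted p = 0.017) and luminal aggregates (-1.33 ± 0.25, adjusted p = 0.0035), and the first of these ended without basal 3 (-1.01, adjusted p = 0.077). In the joint test of lying outside both pure kinds it did not pass (adjusted p = 0.15). With the code series as a term the calls of mixed against luminal ended for Ddit3 (-2.09, adjusted p = 0.13), Ppp1r15a (-1.64, adjusted p = 0.15) and Sesn2 (-1.09, adjusted p = 0.46), as did that of Sesn2 against basal (-0.96, adjusted p = 0.19).

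**Figure D2:**
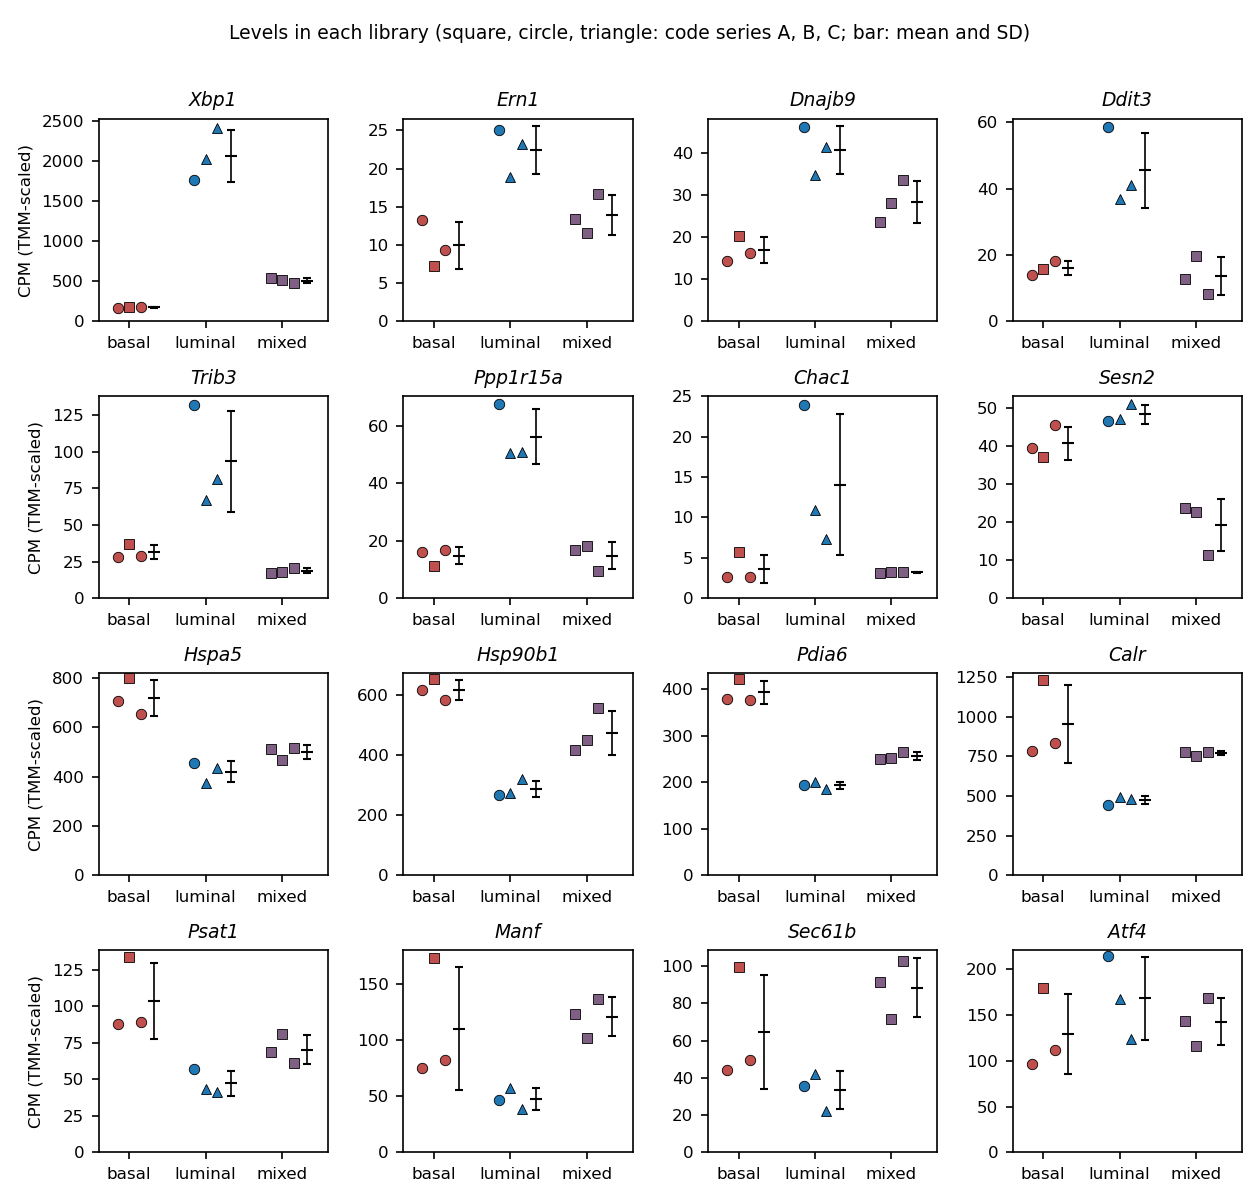
Each panel plots 1 gene's TMM-scaled CPM (linear axis from 0) in the 9 libraries by kind of aggregate, with squares, circles and triangles for code series A, B and C and black bars for the group mean and SD (n = 3). Xbp1, Ern1, Ddit3, Trib3, Ppp1r15a and Chac1 are highest in luminal libraries, Hspa5, Hsp90b1, Pdia6 and Calr are lowest there, Sesn2 is lowest in mixed libraries, and the square of basal 2 lies above the mixed libraries for Manf and among them for Sec61b.

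The enzymes of amino acid synthesis did not move together. Asns, asparagine synthetase and an ATF4 target, was at 48.1, 74.3 and 59.3 CPM in basal, 138, 92.5 and 83.3 CPM in luminal and 56.7, 61.3 and 46.3 CPM in mixed libraries. Luminal libraries lay above the rest. Asns rose in luminal against basal aggregates by 0.79 ± 0.23 (adjusted p = 0.024), which ended without basal 1 (0.69, adjusted p = 0.066), without basal 3 (0.77, adjusted p = 0.077) and without luminal 1 (0.54, adjusted p = 0.13). It was lower in mixed than in luminal aggregates by -0.93 ± 0.23 (adjusted p = 0.012), which ended without luminal 1 (-0.69, adjusted p = 0.057). Psat1, of the serine pathway, went the other way, with 87.6, 133 and 89.5 CPM in basal, 57.3, 43.3 and 41.5 CPM in luminal and 69.0, 80.8 and 60.9 CPM in mixed libraries. Shmt2, the mitochondrial enzyme that turns serine into glycine, was at 115, 159 and 122 CPM, 71.6, 55.5 and 53.7 CPM, and 88.8, 72.2 and 89.2 CPM in the same order. For both genes basal libraries lay above mixed and mixed above luminal ones without overlap. Psat1 and Shmt2 each fell by 1.13 in luminal against basal aggregates (SE 0.21 and 0.19, adjusted p = 0.0021 and 0.00087), and neither passed with the code series as a term (-0.63, adjusted p = 0.12, and -0.72, adjusted p = 0.055). Shmt2 was also lower in mixed than in basal aggregates (-0.66 ± 0.19, adjusted p = 0.038), which ended when basal 1, basal 3 or any of the mixed libraries was left out (adjusted p from 0.050 to 0.12) and under the replicate block (-0.66, adjusted p = 0.063). Phgdh, the first enzyme of the serine pathway, was not called in any comparison.

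Promoter sequences were searched for the letters of known stress elements, as a description only. The RefSeq promoter table (build GRCm38.p6, 250 bases before to 50 after each gene start) holds 33 promoters for 32 of the members. The C/EBP-ATF composite element, to which ATF4 and CHOP bind with C/EBP partners, was written TGATGNAA and searched on both strands. It occurs in the promoters of 4 members, Asns, Chac1, Herpud1 and Trib3, and in 3.97% of all promoters in the table. Those 4 were all lower in mixed than in luminal aggregates, and 3 of them were higher in luminal than in basal ones. Of the 324 tested genes outside the members that hold these letters, 59 rose and 52 fell in luminal against basal aggregates (34.3% called), and 47 rose and 51 fell in mixed against luminal ones (30.2% called). Over all genes tested 27.1% and 29.4% passed. The matches of Asns (chr6:7693210-7693252, minus strand, -43 to -1 from the start) and Chac1 (chr2:119351029-119351076, plus strand, -213 to -166) are shown because both genes passed in the same comparisons, and capitals mark the fixed letters of the element.
Asns: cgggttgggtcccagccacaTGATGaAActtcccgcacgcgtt
Chac1: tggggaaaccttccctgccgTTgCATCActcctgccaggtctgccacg
The element reads forwards in Asns and on the opposite strand in Chac1. The match in Trib3 lies after the gene start.

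The ER stress element (ERSE), bound by the factor NF-Y at one end and by ATF6 or XBP1 at the other, was written as CCAAT, then 9 bases of any kind, then CCACG, and searched likewise. It occurs in 9 members (Calr, Canx, Creld2, Derl3, Dnajc3, Hsp90b1, Hspa5, Pdia6 and Syvn1) and in 39 of the 32851 promoters of the table (0.119%). Of these 9, none was higher and 6 were lower in luminal than in basal aggregates, and 3 were lower with the code series as a term. The 66.7% called was near the 64.7% of all members, of which 10 were higher and 12 lower. Between mixed and luminal aggregates 2 were higher and 1 was lower (33.3%, near the 29.4% of all genes tested). Among 11 tested genes outside the members that hold the letters, none was higher and 3 were lower in luminal than in basal aggregates. This was 27.3%, near the 27.1% of all genes tested. Between mixed and luminal aggregates 3 of them were higher and 3 lower (54.5%). The core of the other XBP1 element, TGACGTGG, occurs in no member promoter and in 0.676% of all promoters, and no matches of different elements overlapped in the members. Shown are the matches of the 4 members with the lowest adjusted p between luminal and basal aggregates, with capitals for the fixed letters. They lie at chr12:17266471-17266529 (Pdia6, plus strand), chr10:86705513-86705676 (Hsp90b1, minus strand), chr8:84847055-84847113 (Calr, minus strand) and chr2:34772005-34772063 (Hspa5, plus strand).
Pdia6: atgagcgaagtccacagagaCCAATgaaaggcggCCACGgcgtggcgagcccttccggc
Hsp90b1: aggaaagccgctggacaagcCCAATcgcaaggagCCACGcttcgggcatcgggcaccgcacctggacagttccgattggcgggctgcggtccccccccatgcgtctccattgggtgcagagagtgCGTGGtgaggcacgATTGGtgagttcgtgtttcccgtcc
Calr: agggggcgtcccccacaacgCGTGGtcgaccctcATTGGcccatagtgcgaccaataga
Hspa5: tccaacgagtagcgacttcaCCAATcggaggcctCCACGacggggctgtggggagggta
Hsp90b1 holds 2 matches, 1 on each strand, and the match of Calr reads on the opposite strand. A match of letters is a description and does not show that a factor binds there, and the promoter build differs from the build of the counts.

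Of the 8 ER chaperones and their cofactors, 4 were lower and 1 was higher in luminal than in basal aggregates (62.5%, where 27.1% of all genes passed). Together the 8 summed to 1854 ± 242 CPM in basal, 1115 ± 36.4 CPM in luminal and 1521 ± 113 CPM in mixed aggregates (mean ± SD, n = 3 each). Hspa5, which encodes BiP, the main Hsp70 of the ER, was at 706, 798 and 652 CPM in basal, 454, 372 and 434 CPM in luminal and 513, 466 and 516 CPM in mixed libraries. Basal libraries lay above mixed ones and mixed above luminal ones. Hspa5 fell by 0.77 ± 0.16 in luminal against basal aggregates (adjusted p = 0.0035), which ended with the code series as a term (-0.58, adjusted p = 0.085). It was lower in mixed than in basal aggregates by -0.53 ± 0.16 (adjusted p = 0.048). That call lay at the threshold and ended when any of 7 libraries was left out (adjusted p from 0.058 to 0.13), as well as under the replicate block (adjusted p = 0.077), with the code series (adjusted p = 0.058) and without the filter on low counts (adjusted p = 0.073). It held without basal 2 and without luminal 2.

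Hsp90b1, which encodes GRP94, the Hsp90 of the ER, was at 617, 654 and 586 CPM in basal, 269, 274 and 320 CPM in luminal and 417, 452 and 557 CPM in mixed libraries. The groups did not overlap. The difference was -1.10 ± 0.17 between luminal and basal (adjusted p = 0.00044) and 0.72 ± 0.17 between mixed and luminal aggregates (adjusted p = 0.0089), the latter not with the code series as a term (0.70, adjusted p = 0.40). Other genes cover 15.7% of the exon bases of Hsp90b1, and counting did not use strand, so its level is less certain than that of the others. Sdf2l1, a BiP cofactor, was at 52.1, 98.0 and 68.2 CPM in basal, 22.8, 38.8 and 26.0 CPM in luminal and 53.4, 47.6 and 45.6 CPM in mixed libraries. All luminal libraries lay below all others. Sdf2l1 fell by 1.32 ± 0.26 in luminal against basal aggregates (adjusted p = 0.0027) under every alternative run. It was higher in mixed than in luminal aggregates by 0.74 ± 0.26 (adjusted p = 0.049), a call that ended when any of 6 libraries was left out (basal 3, luminal 1 or 3, or any mixed library, adjusted p from 0.072 to 0.18) and with the code series (0.40, adjusted p = 0.82).

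Manf, a secreted ER protein that binds BiP, differed among the basal libraries. It was at 75.1, 173 and 82.2 CPM in basal 1, 2 and 3, at 46.5, 57.7 and 38.5 CPM in luminal libraries and at 123, 102 and 137 CPM in mixed libraries. Basal 2, which shares series A with the mixed libraries, lay above all of them, while basal 1 and 3 lay below. Basal 2 was also the basal library with the most immune marker counts, and the part of either in the level of Manf was not tested. Manf fell by 1.21 ± 0.30 in luminal against basal aggregates (adjusted p = 0.011) and was higher in mixed than in luminal ones by 1.34 ± 0.30 (adjusted p = 0.0078). With the code series as a term neither passed (-0.76, adjusted p = 0.13, and 0.24, adjusted p = 0.91). Mixed minus basal Manf was 0.13 (adjusted p = 0.80), and without basal 2 it passed at 0.61 (adjusted p = 0.043). Other genes cover 9.25% of its exon bases.

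Dnajb9, the ERdj4 cochaperone of BiP that is induced through XBP1, was the only one of the 8 chaperones and cofactors called higher in luminal than in basal aggregates. It was at 14.3, 20.4 and 16.2 CPM in basal, 46.2, 34.8 and 41.6 CPM in luminal and 23.6, 28.1 and 33.6 CPM in mixed libraries. The groups did not overlap, in the same order as for Xbp1, and a part of XBP1 in the level of Dnajb9 was not tested. Dnajb9 rose by 1.27 ± 0.22 in luminal against basal aggregates (adjusted p = 0.0012) under every alternative run. It was also higher in mixed than in basal aggregates (0.75 ± 0.22, adjusted p = 0.044), a call that held only without basal 2 and ended when any of the other 8 libraries was left out (adjusted p from 0.052 to 0.16). It ended likewise with library size scaling (0.61, adjusted p = 0.075), the replicate block (0.74, adjusted p = 0.069), the code series (0.48, adjusted p = 0.45) and a fit of the 2 groups alone (0.75, adjusted p = 0.075). Dnajb11, Dnajc3 and Creld2 were not called. Dnajb11, another BiP cochaperone, was at 85.8, 112 and 81.7 CPM in basal, 86.8, 82.4 and 86.02 CPM in luminal and 93.1, 94.4 and 86.8 CPM in mixed libraries, which all overlapped. Dnajc3, which encodes the P58IPK cochaperone and inhibitor of PERK, was at 108, 154 and 107 CPM in basal, 127, 139 and 129 CPM in luminal and 163, 178 and 188 CPM in mixed libraries. Each mixed library was above all basal and luminal ones, but the differences of 0.52 ± 0.17 from basal (adjusted p = 0.073) and 0.42 ± 0.17 from luminal aggregates (adjusted p = 0.092) did not pass. Without basal 2, the former passed at 0.69 (adjusted p = 0.0050). Creld2, an ER disulfide isomerase-like protein, was at 85.8, 122 and 94.01 CPM in the basal libraries and 73.98, 74.1 and 68.7 CPM in luminal libraries (-0.48 ± 0.17, adjusted p = 0.057).

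Of the 4 protein disulfide isomerases, 2 were lower in luminal than in basal aggregates and the same 2 were lower in mixed than in basal ones. This was 50% in each comparison, where 27.1% and 13.7% of all genes passed. Pdia6 was at 379, 423 and 378 CPM in basal, 194, 202 and 186 CPM in luminal and 250, 252 and 265 CPM in mixed libraries. The groups did not overlap and the spread within each was small. Pdia6 fell by 1.02 ± 0.14 in luminal against basal aggregates (adjusted p = 0.00025) under every alternative run, and by 0.62 ± 0.14 in mixed against basal ones (adjusted p = 0.016). The second call ended without basal 3, mixed 1 or mixed 2 (adjusted p from 0.056 to 0.057) and held with the code series as a term (-0.72, adjusted p = 0.033). Pdia4 was at 282, 281 and 257 CPM in basal, 164, 133 and 205 CPM in luminal and 156, 179 and 119 CPM in mixed libraries. Basal libraries lay above both other groups, which overlapped. Its differences from basal were -0.71 ± 0.20 in luminal (adjusted p = 0.022) and -0.86 ± 0.20 in mixed aggregates (adjusted p = 0.018). The former ended without basal 1, luminal 1 or luminal 2 (adjusted p from 0.061 to 0.082) and the latter without basal 1, basal 3, mixed 1 or mixed 3 (adjusted p from 0.052 to 0.064). Neither passed with the code series (adjusted p = 0.18 and 0.11). P4hb and Pdia3, the most abundant isomerases, were not called. Pdia3 was at 910, 1174 and 953 CPM in the basal libraries and 729, 771 and 781 CPM in luminal libraries (-0.41 ± 0.16, adjusted p = 0.074). P4hb was at 596, 658 and 597 CPM in the basal libraries and 527, 470 and 441 CPM in mixed libraries (-0.36 ± 0.15, adjusted p = 0.14).

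Both lectin chaperones, which hold glycoproteins in the ER until they have folded, were lower in luminal than in basal aggregates. Over all genes tested 14.4% were lower there. Calr, calreticulin, was at 787, 1236 and 838 CPM in basal, 446, 493 and 482 CPM in luminal and 781, 754 and 780 CPM in mixed libraries. Luminal libraries lay below all others. Calr fell by 1.01 ± 0.19 in luminal against basal aggregates (adjusted p = 0.0020) under every alternative run, and was higher in mixed than in luminal ones by 0.70 ± 0.19 (adjusted p = 0.018). That second call ended without luminal 1, luminal 3, mixed 1 or mixed 3 (adjusted p from 0.052 to 0.073) and with the code series (0.19, adjusted p = 0.87). Canx, calnexin, was at 507, 647 and 465 CPM in basal, 374, 281 and 399 CPM in luminal and 487, 489 and 512 CPM in mixed libraries. It fell by 0.62 ± 0.19 in luminal against basal aggregates (adjusted p = 0.029), which ended without basal 2, luminal 1 or luminal 2 (adjusted p from 0.057 to 0.099). It also ended under the replicate block (adjusted p = 0.052), in a fit of the 2 groups alone (adjusted p = 0.064) and with the code series (-0.38, adjusted p = 0.37). Basal 2 was the highest library for both genes.

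Among the 5 genes of ER-associated degradation, the pathway that exports misfolded protein to the proteasome, 1 rose and 1 fell in luminal against basal aggregates, and 3 were lower in mixed than in luminal ones. This made 40% and 60% called, where 27.1% and 29.4% of all genes passed. Derl3, a derlin channel subunit and the member with the lowest luminal and mixed levels per kilobase, was at 9.13, 6.78 and 8.22 CPM in basal, 3.02, 2.02 and 1.49 CPM in luminal and 2.63, 2.58 and 4.36 CPM in mixed libraries. Basal libraries lay above all others. Derl3 fell by 1.88 ± 0.45 in luminal against basal aggregates (adjusted p = 0.0082), and with the code series as a term by 1.52 without passing (adjusted p = 0.19). Mixed minus basal Derl3 was -1.33 ± 0.44 (adjusted p = 0.065). Sel1l, the scaffold of the HRD1 ligase, was at 114, 110 and 102 CPM in basal, 162, 140 and 171 CPM in luminal and 136, 115 and 159 CPM in mixed libraries. Sel1l rose by 0.54 ± 0.17 in luminal against basal aggregates (adjusted p = 0.031), which ended without basal 3, luminal 1, luminal 3 or mixed 1 (adjusted p from 0.056 to 0.12), with library size scaling (0.40, adjusted p = 0.099) and with the code series (0.59, adjusted p = 0.15).

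Herpud1, an ER membrane protein induced by both ATF4 and ATF6, was at 45.6, 60.6 and 50.6 CPM in basal, 80.6, 70.3 and 74.4 CPM in luminal and 54.5, 54.3 and 38.3 CPM in mixed libraries. Luminal libraries lay above both other groups. Herpud1 was lower in mixed than in luminal aggregates (-0.61 ± 0.19, adjusted p = 0.030), and luminal minus basal did not pass at 0.52 ± 0.19 (adjusted p = 0.059). The former call ended without luminal 1, luminal 3 or mixed 3 (adjusted p from 0.071 to 0.098) and with the code series (-1.05, adjusted p = 0.22). Edem1, which extracts mannose-trimmed glycoproteins, was at 74.7, 61.9 and 108 CPM in luminal and 52.1, 58.0 and 42.2 CPM in mixed libraries. It was lower in mixed aggregates by -0.68 ± 0.22 (adjusted p = 0.036). Syvn1, the HRD1 ligase itself, was at 62.1, 57.7 and 77.4 CPM in luminal and 40.8, 40.4 and 52.1 CPM in mixed libraries, lower by -0.57 ± 0.19 (adjusted p = 0.047). Both calls ended when any of 5 libraries was left out, Edem1 without basal 3, luminal 1, luminal 3, mixed 1 or mixed 3 (adjusted p from 0.050 to 0.16) and Syvn1 without basal 3, luminal 1, luminal 3, mixed 1 or mixed 2 (adjusted p from 0.069 to 0.17). With the code series as a term they stood at -0.50 (adjusted p = 0.78) and -0.13 (adjusted p = 0.96). Edem1 also ended under the replicate block (-0.67, adjusted p = 0.063), and Syvn1 with library size scaling (-0.58, adjusted p = 0.068) and in a fit of the 2 groups alone (-0.53, adjusted p = 0.050).

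Sec61b, a small subunit of the channel through which new proteins enter the ER, was at 44.3, 99.7 and 49.7 CPM in basal 1, 2 and 3, at 35.6, 42.4 and 22.5 CPM in luminal libraries and at 91.6, 71.4 and 103 CPM in mixed libraries. Basal 2 lay among the mixed libraries, while basal 1 and 3 lay below them. Sec61b was higher in mixed than in luminal aggregates by 1.40 ± 0.32 (adjusted p = 0.0091), but the difference with the code series as a term was 0.23 (adjusted p = 0.94). It fell by 0.95 ± 0.32 in luminal against basal aggregates (adjusted p = 0.047), which ended when any of 6 libraries was left out (basal 2, luminal 1, luminal 3 or any mixed library, adjusted p from 0.052 to 0.19). Without basal 2 that difference was -0.50. It also ended with limma-voom (adjusted p = 0.055), the replicate block (adjusted p = 0.056), a fit of the 2 groups alone (adjusted p = 0.075) and the code series (-0.40, adjusted p = 0.60). Mixed minus basal Sec61b was 0.45 (adjusted p = 0.37), and without basal 2 it passed at 0.90 (adjusted p = 0.028).

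**Figure D3:**
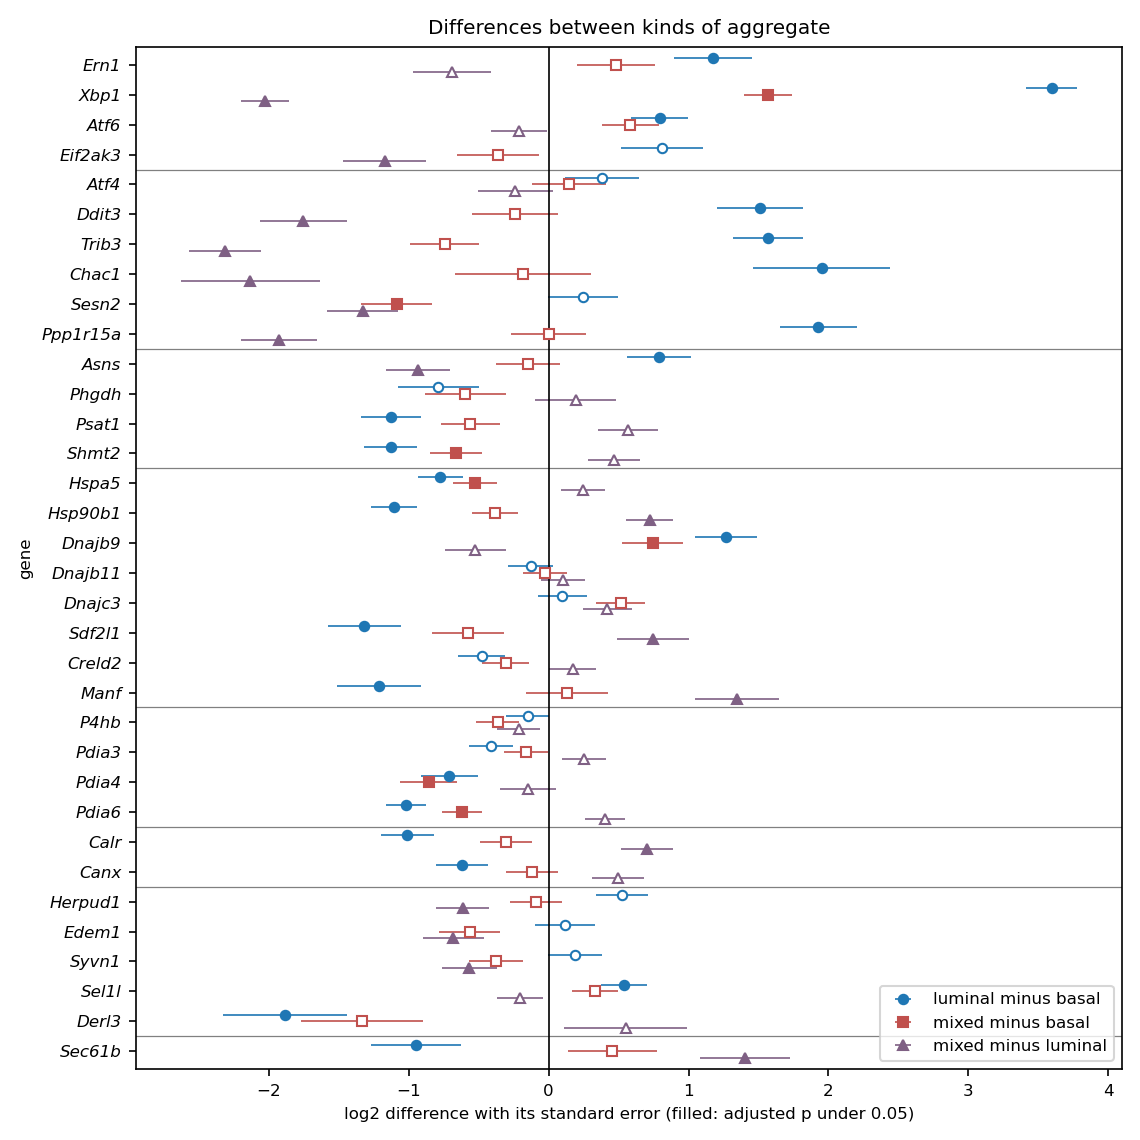
Points give the log2 difference of each member between kinds of aggregate (horizontal axis) with its standard error as a bar, for luminal minus basal (circles), mixed minus basal (squares) and mixed minus luminal (triangles), filled where the adjusted p was under 0.05. Xbp1 lies farthest to the right at 3.60, and the integrated stress effectors lie to the right as circles and to the left as triangles.

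The mixed aggregates were then set against both pure kinds. No member passed as lying outside both by edgeR's quasi-likelihood test (0.0886% of all genes did, 0.0499% above and 0.0388% below). At an unadjusted p under 0.05 in that test, 4 members lay outside both, with Trib3, Sesn2 and Edem1 below and Dnajc3 above. The share of all genes at this unadjusted threshold was not counted, so these 4 cannot be set against the 0.0886%. DESeq2 called 1 member, Sesn2 (adjusted p = 0.0045, 3.45% of all genes), and limma-voom called none. Without the filter on low counts Sesn2 and Trib3 passed (2.62% of all genes), and without basal 2 Sesn2 passed (adjusted p = 0.034, 6.60% of all genes). The equal-weight average of the basal and luminal means serves as a point of reference only, because the share of RNA that each cell kind gave to the mixed libraries was not measured. Relative to it, the mixed mean ranged from 0.301 for Trib3 to 1.81 for Sec61b. Among the sensors it was 0.453 for Xbp1, 0.565 for Eif2ak3, 0.858 for Ern1 and 1.10 for Atf6. Among the integrated stress genes it was 0.363 for Chac1, 0.417 for Ppp1r15a, 0.432 for Sesn2 and 0.440 for Ddit3, but 0.961 for Atf4. Chaperones ranged from 0.876 for Hspa5 to 1.38 for Dnajc3 and 1.53 for Manf, with 1.05 for Hsp90b1, and the lectin chaperones were at 1.08 (Calr) and 1.11 (Canx). No test was made of these ratios. The factors and effectors of the integrated stress response summed to 236 ± 45.9 CPM in basal, 426 ± 102 CPM in luminal and 213 ± 12.6 CPM in mixed aggregates.

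Genes of the same pathways outside the 34 were counted in lists. Over all genes tested, 27.1% passed in luminal against basal, 13.7% in mixed against basal and 29.4% in mixed against luminal aggregates. The share called of each list is given below in that order, and several lie near or below these. Of 24 tested regulators and targets of the integrated stress response, 6 rose and 4 fell in luminal against basal aggregates, 3 rose and 5 fell in mixed against basal, and 2 rose and 3 fell in mixed against luminal ones. The shares called were 41.7%, 33.3% and 20.8%. Nupr1, a small stress-induced nuclear protein, had the largest differences, with 85.9 CPM in basal, 2634 CPM in luminal and 961 CPM in mixed aggregates as means. Its log2 differences were 4.94 ± 0.24 (adjusted p = 1.5e-07), 3.48 ± 0.22 (adjusted p = 6.9e-06) and -1.46 ± 0.21 (adjusted p = 0.00058) in the order of the comparisons. Atf3, a factor induced by ATF4 and other stress signals, rose from 10.3 to 42.3 CPM (2.03 ± 0.33, adjusted p = 0.00075) in luminal against basal aggregates. Niban1 was lower in luminal aggregates, at 16.3 against 90.9 CPM (-2.48 ± 0.32, adjusted p = 0.00015). Stc2, a secreted glycoprotein, was higher in mixed than in basal aggregates (247 against 60.1 CPM, 2.04 ± 0.34, adjusted p = 0.0030), and Vldlr was lower there (-1.11 ± 0.20, adjusted p = 0.0040). All calls of these 5 genes given here passed with each library left out and with the code series as a term. Ddit4 was lower in mixed (-1.46 ± 0.24, adjusted p = 0.0032) and in luminal aggregates (-0.89 ± 0.24, adjusted p = 0.017) than in basal ones. With the code series as a term neither of its calls passed (adjusted p = 0.054 and 0.057). Its call between luminal and basal aggregates passed in 5 of 9 runs with 1 library left out.

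Of 19 further sensors and factors of the unfolded protein response, 6 rose and 2 fell in luminal against basal aggregates, none rose and 2 fell in mixed against basal, and 3 rose and 6 fell in mixed against luminal ones. This made 42.1%, 10.5% and 47.4% called. Crebrf and Wfs1 were higher in luminal than in basal aggregates (1.31 ± 0.27, adjusted p = 0.0040, and 1.23 ± 0.28, adjusted p = 0.0061), neither with the code series as a term (adjusted p = 0.12 and 0.23). Creb3l2, a membrane-bound factor related to ATF6, was lower (-0.88 ± 0.18, adjusted p = 0.0028). Of 20 further genes of ER-associated degradation, 5 rose and none fell in luminal against basal aggregates, none rose and 1 fell in mixed against basal, and none rose and 6 fell in mixed against luminal ones. Their shares called, 25%, 5% and 30%, were near or below those of all genes. Os9, a lectin that delivers glycoproteins to the HRD1 complex, had 117 CPM in basal, 248 CPM in luminal and 116 CPM in mixed aggregates (1.08 ± 0.18, adjusted p = 0.00088, and -1.10 ± 0.18, adjusted p = 0.0015, against luminal). The second of these did not pass with the code series (-0.79, adjusted p = 0.27).

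Of 27 further ER folding genes, 4 rose and 6 fell in luminal against basal aggregates, 1 rose and 2 fell in mixed against basal, and 5 rose and 6 fell in mixed against luminal ones. In shares this was 37%, 11.1% and 40.7%. Ppic, an ER proline isomerase, had a mean of 127 CPM in basal aggregates but of 7.65 CPM in luminal ones (-4.05 ± 0.34, adjusted p = 5.7e-06). Sil1, the exchange factor of BiP, went the other way (0.96 ± 0.16, adjusted p = 0.00080). Of 27 genes of translocation and N-glycan transfer, 1 was higher and 4 lower, 2 higher and 3 lower, and 4 higher and 3 lower in the same order (18.5%, 18.5% and 25.9% called). Sec11c, a signal peptidase subunit, was higher in luminal (0.95 ± 0.19, adjusted p = 0.0026) and mixed aggregates (1.27 ± 0.19, adjusted p = 0.0014) than in basal ones. Of 20 amino acid enzymes and transporters linked to ATF4, 2 were higher and 7 lower, none higher and 2 lower, and 6 higher and 4 lower (45%, 10% and 50% called). Slc3a2, the heavy chain of amino acid exchangers, had 228 CPM in basal, 615 CPM in luminal and 300.5 CPM in mixed aggregates (1.43 ± 0.20, adjusted p = 0.00022, against basal and -1.03 ± 0.19, adjusted p = 0.0032, against luminal). Slc1a5, a glutamine transporter, and Psph, the last enzyme of serine synthesis, fell by 1.86 and 1.89 in luminal against basal aggregates (adjusted p = 4.1e-05 and 0.00017). Another gene covers 10.4% of the exon bases of Psph.

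Of 18 cytosolic aminoacyl-tRNA synthetases, many of which are ATF4 targets, 1 rose and 1 fell in luminal against basal aggregates, none rose and 6 fell in mixed against basal, and 1 rose and 7 fell in mixed against luminal ones. These counts were 11.1%, 33.3% and 44.4% of the list. Sars was the one that rose in luminal aggregates (0.87 ± 0.16, adjusted p = 0.0015). Nars had 281 CPM in luminal and 130 CPM in mixed aggregates (-1.11 ± 0.20, adjusted p = 0.0022), not with the code series (-0.98, adjusted p = 0.095). For contrast, of 20 genes of the cytosolic heat shock response, which is driven by HSF1 and not by the ER sensors, 3 were higher and 5 lower, 2 higher and 2 lower, and 5 higher and 1 lower in the same order (40%, 20% and 30% called). Hspd1, a mitochondrial chaperonin kept on this list, fell by 1.14 ± 0.20 in luminal against basal aggregates (adjusted p = 0.0013). Hspa1a, an inducible cytosolic Hsp70, rose there by 1.53 ± 0.22 (adjusted p = 0.00027), though another gene covers 19% of its exon bases. Apart from Ddit4 in luminal against basal aggregates, every call given here for these lists passed with each library left out in turn. Not all other eligible calls did. Between mixed and basal aggregates, Aars and Cars each passed in 5 of 9 such runs and Sec61a2 in 1. The stability of the genes named does not extend to the list counts. The genes named are examples, chosen after their values were seen, from the genes that the rule made eligible.

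With the code series as a term, fewer list genes passed. Between mixed and luminal aggregates, all 11 calls of further ER folding genes, 6 of ER-associated degradation, 9 of sensors and factors, 7 of translocation, 8 of synthetases and 6 of heat shock ended. Of the regulators of the integrated stress response 1 rose and 1 fell there, and 1 of the ATF4-linked genes fell. Between mixed and basal aggregates, the 6 synthetases, the 2 sensors and factors, the gene of ER-associated degradation and the 4 heat shock genes no longer passed. Left there were 2 lower folding genes, 1 higher translocation gene, 2 higher and 2 lower regulators of the integrated stress response, and 2 lower ATF4-linked genes. Between luminal and basal aggregates, higher and lower calls numbered 2 and 5 for folding, 1 and 0 for ER-associated degradation, and 1 and 1 for sensors and factors. They numbered 2 and 0 for translocation, 5 and 1 for regulators of the integrated stress response, 2 and 4 for ATF4-linked genes, 2 and 0 for synthetases, and 2 and 2 for heat shock.

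**Figure D4:**
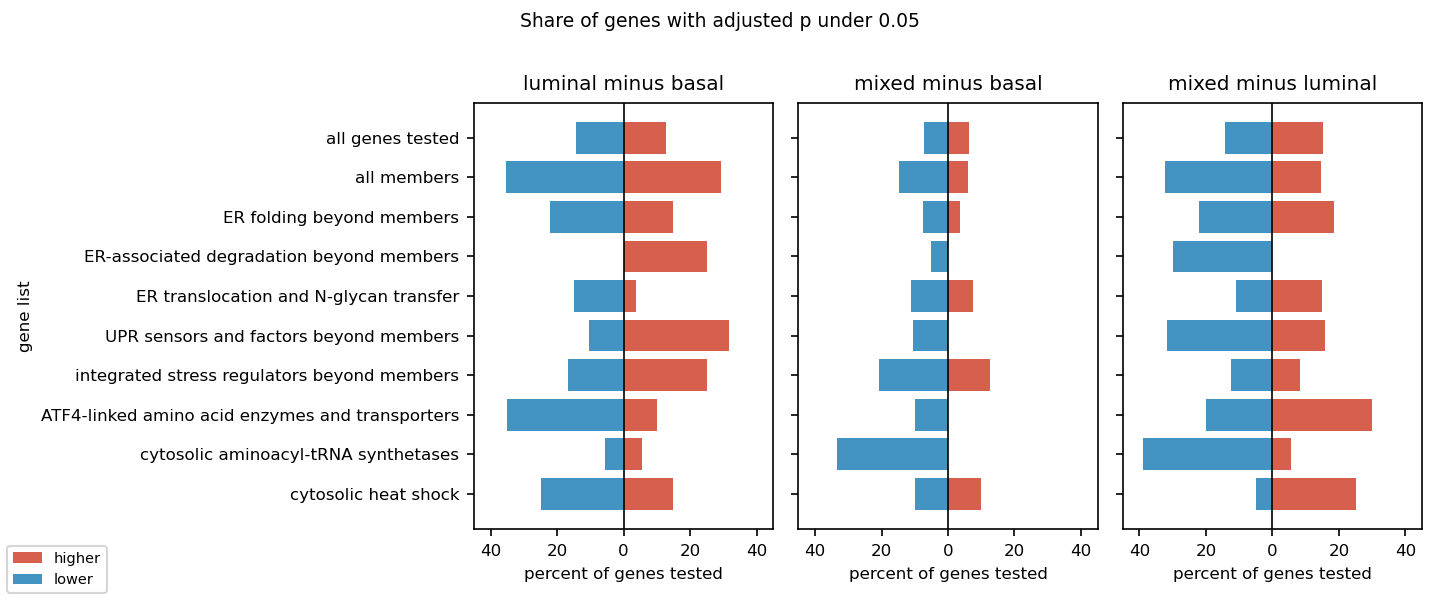
Bars give the percent of tested genes in each list that were higher (red, to the right) or lower (blue, to the left) at an adjusted p under 0.05, in 1 panel per comparison and without the code series as a term, with all 18051 genes tested in the top row and the 34 members in the second. The members exceed all genes in both directions between luminal and basal aggregates, but they were chosen with earlier results of these data known. Further genes of ER-associated degradation have no lower call there and no higher call between mixed and luminal aggregates. Their shares called, 25% and 30%, were near the 27.1% and 29.4% of all genes tested.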

How the data were processed

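RNA-seq libraries of 3 basal, 3 luminal and 3 mixed aggregates were prepared with a stranded mRNA kit, per the labels. The authors deposited 1 table of unnormalized counts by gene name, made with featureCounts 2.0.1 over exons without using strand or multi-mapping reads, per the file headers. Build mm39, Trim Galore and Subread are named in the submitters' processing notes. Neither the alignment settings nor the annotation release is given in the sources used here. Without strand, counts of overlapping genes are uncertain, and the overlap is given above for some of the genes named. Among the others, overlap was 19.9% of exon bases for Sec61a2, 15.7% for Krtcap2 and 15.1% for Aars. It was 5.87% for Krt5, 5.7% for Sil1, 5.16% for Krt8 and 4.73% for Ddit3.

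The tests used edgeR 4.0.16 under R 4.3.3, with filterByExpr, TMM scaling, 1 fit of all 9 libraries (6 residual degrees of freedom), quasi-likelihood test, two-sided, adjusted over 18051 genes. For a position outside both pure groups, the larger p-value of 2 contrasts of the same sign was adjusted. CPM are TMM-scaled, without a pseudocount. Alternatives used DESeq2 1.42.0, limma 3.58.1 (voom), other scalings and filters, a 1.5-fold threshold, the replicate block, the code series (4 residual degrees of freedom) and each library left out. The code was tested on simulated data.

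The members and lists were chosen with earlier results of these data known. Called members are given with values. Of members called nowhere, at most 6 have values, by highest mean CPM. In each other list, up to 2 rising and 2 falling called genes per comparison were eligible, by largest difference at a mean of at least 10 CPM. Identity was checked with Krt5, Krt14, Krt8 and Muc1 among others. 175 of 178 list symbols were tested. Promoters came from RefSeq (GRCm38.p6). Protein features were not used here.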

Additional observations from a re-analysis of the deposited data

How the results depend on the processing

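Of the 45 calls, 12 passed under every alternative, a further 12 failed with the code series as a term alone (24 when it is left aside), and none reversed (the test against a 1.5-fold change was run for the counts only). Between luminal and basal aggregates, 13 members were called with the code series and 13 against a 1.5-fold change, and 16 to 23 with 1 library left out. Between mixed and basal aggregates, 11 were called with library size scaling, 13 with DESeq2, 1 against a 1.5-fold change, and 1 to 12 with 1 library left out. Library size scaling moved the median of all genes to -0.22 there, and its calls split into 1 higher and 10 lower, against 2 and 5. Between mixed and luminal aggregates, 4 were called with the code series (none higher), 8 against a 1.5-fold change, and 8 to 22 with 1 library left out. Outside both pure groups, 1 was called with DESeq2, 2 without the filter on low counts, and 0 to 1 with 1 library left out. The split between luminal and basal aggregates was 9 higher and 4 lower with the code series.

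The replicate block (title number) left 4 members called between mixed and basal aggregates. The numbers were not taken to pair the libraries, since same-numbered libraries correlated at -0.17 to 0.20 after centring by group, and 4 of 9 libraries correlated best with their own number. Of the 45 calls 39 passed under the block.

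Among differences that did not pass, 24 of 57 changed sign under some alternative. With the code series, mixed minus basal Manf became -0.52, Sec61b -0.17 and Sec61a2 0.020, and mixed minus luminal Dnajc3 became -0.047, Slc7a1 -0.25, Krtcap2 -0.011, Sec61a2 0.34 and Eif2b1 -0.085. The last 4 and mixed minus basal Sec61a2 had passed with the opposite sign without the series. Manf ranged from -0.058 to 0.61 between mixed and basal aggregates with 1 library left out. The causes were not tested. The members with the fewest counts, Derl3 (24 to 180 a library) and Chac1 (45 to 443), also had the largest standard errors of all members, and the part of depth in them was not tested.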
